A study of Saccharomyces cerevisiae with 28 samples.

Results

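The step from middle to low glucose in cultures of the budding yeast (Saccharomyces cerevisiae) strain YL388 was profiled by RNA sequencing in 6 libraries of the 28 in the series. The middle side held the cultures at 0.1, 0.075 and 0.05% glucose and the low side those at 0.025, 0.02 and 0.0125%, chosen by the strain and the concentration in their labels. Every culture grew in synthetic minimal medium, first at 0.2% glucose and then for 2 h at its own concentration, and was fixed in cold methanol before total RNA was extracted. The 3 YL388 cultures at higher glucose (0.4, 0.2 and 0.15%), handled the same way, served to show what preceded the step. The labels name the strain by number and give no genotype. One culture was sequenced at each concentration, so the 3 libraries of a side are neighbouring concentrations and not replicates of one condition.

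Yeast ferments glucose by preference and, while glucose is plentiful, represses the genes for other carbon sources, for respiration and for storage. When glucose runs low, the Snf1 kinase is active and the repressor Mig1 leaves the nucleus, activators such as Cat8, Adr1 and the Hap complex turn on respiratory and gluconeogenic genes, and low protein kinase A activity lets Msn2 and Msn4 act on stress genes. Growth-related genes for ribosome production are known to go the other way. These are textbook relations and none of them was measured here.

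Expression is given as FPKM, the fragments counted on a gene scaled by its length and by the depth of the library. The widths of the deposited confidence bounds imply 6.36 to 8.44 M fragments (M, 1e6) in the 6 libraries, an estimate that covers counting error only, and 6121 to 6158 genes had a value over 0. For 47.8 to 53.2% of these genes the FPKM exceeded the upper bound given beside it, so levels are compared within a gene and not between genes. Levels below are given in order of falling glucose. A log2 change is the mean of log2(FPKM + 1) in the 3 low libraries minus that in the 3 middle libraries, with its standard error after ±; the added 1 understates changes of genes at low values.

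From middle to low glucose, RNA rose for many genes of respiration, storage carbohydrates, other carbon sources and stress protection. With overlapping genes and genes with a zero left aside, the largest called rises included those of RGI2, a gene of respiratory growth (6.00 ± 0.94), and the hydrophilin SIP18 (3.67 ± 0.80). Genes that fell included PFK27, a regulator of glycolysis (-1.18 ± 0.07), the S-adenosylmethionine synthetase SAM1 (-0.98 ± 0.19) and DSE1, a gene of daughter cell separation (-0.69 ± 0.08). Counted over the genome, 672 of 6118 genes tested rose (11.0%) and 216 fell (3.53%) at an adjusted p under 0.05 (limma, Benjamini-Hochberg over all genes tested). Rises were larger than falls: the median called rise was 1.44-fold, with 107 genes at 2-fold or more and 22 at 4-fold or more, whereas the median called fall was 1.29-fold and 2 genes fell 2-fold or more, PFK27 and YCR087C-A, the latter in overlap with another gene. These counts depended on single libraries. With 5 libraries the calls numbered 1 up and 1 down without the 0.1% library, 2 and 2 without 0.075%, and 34 and 8 without 0.05%. They numbered 1020 and 539 without 0.025%, 1 and 2 without 0.02%, and 677 and 321 without 0.0125%. Each of the 672 and 216 genes kept its direction in all 6 of these fits. That outcome was fixed in advance, because the low and middle libraries of every called gene did not overlap. The share of the calls that were rises was 75.7% with the values as deposited, 69.2% with median-of-ratios scaling and 54.9% (551 up, 453 down) with quantile normalization, which moved the median of all genes from 0.03 to -0.04 on the log2 scale.

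The adjusted p-values were close together. Apart from PFK27, at 0.0115, and YJR146W, a gene that overlaps another and was listed at 0 in the 3 middle libraries, the 886 other called genes had a limma adjusted p between 0.0302 and 0.05, and it is given below for genes that were not called. The low libraries lay entirely above the middle ones for 1708 genes (27.9%) and entirely below them for 1371 (22.4%). Because the spread within a side holds any trend between neighbouring concentrations, genes that changed steeply inside a side were called less readily.

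Promoters of 5984 genes were searched for the core letters of the elements known for these pathways, in the 500 bases before the start codon on both strands of the R64 reference sequence from RefSeq. A stretch from a called gene of each pathway is shown to place the matches; capitals mark a match, which may be the reverse complement. They are the stress element AGGGG bound by Msn2 and Msn4 in SIP18 (chrXIII:610628-610827, + strand), the Mig1 core (GGGG after C or G and then C or T) in SUC2 (chrIX:36886-37085, + strand), the Cat8 element CCNNTNNNCCG in IDP2 (chrXII:504288-504437, + strand), the Hap core CCAAT in SDH4 (chrIV:817717-817866, + strand) and the PAC core GATGAG of ribosome biogenesis genes in NAN1 (chrXVI:310060-310209, + strand, with both matches overlapping).
SIP18: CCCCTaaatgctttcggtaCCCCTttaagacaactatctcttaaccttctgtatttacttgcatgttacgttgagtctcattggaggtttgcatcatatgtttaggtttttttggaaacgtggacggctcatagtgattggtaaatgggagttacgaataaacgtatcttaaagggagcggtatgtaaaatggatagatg
SUC2: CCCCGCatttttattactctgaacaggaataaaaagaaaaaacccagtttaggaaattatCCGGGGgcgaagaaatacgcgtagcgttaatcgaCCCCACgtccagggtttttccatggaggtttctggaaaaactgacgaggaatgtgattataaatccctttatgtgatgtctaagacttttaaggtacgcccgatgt
IDP2: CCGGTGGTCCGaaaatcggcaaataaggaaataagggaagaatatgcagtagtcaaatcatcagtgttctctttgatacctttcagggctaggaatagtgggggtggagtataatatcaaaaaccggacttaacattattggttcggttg
SDH4: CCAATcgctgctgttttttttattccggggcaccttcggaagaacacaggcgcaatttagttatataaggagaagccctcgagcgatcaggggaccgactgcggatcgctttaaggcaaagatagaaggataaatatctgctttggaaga
NAN1: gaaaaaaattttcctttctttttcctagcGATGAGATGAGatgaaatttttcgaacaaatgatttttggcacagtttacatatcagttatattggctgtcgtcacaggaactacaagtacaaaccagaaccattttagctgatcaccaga

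The largest called rise was that of RGI2 (YIL057C, chrIX:247902-248396 on sacCer3, - strand), a gene of respiratory growth whose molecular role is little known. Its FPKM was 0.635, 3.02 and 9.56 in the middle libraries and 99.7, 242 and 740.1 in the low ones, a log2 change of 6.00 ± 0.94. Across these 6 libraries it climbed at every fall in glucose, and the middle values themselves spanned a wide range. At 0.15% glucose, on the high side, it read 2.57 FPKM, above the 0.635 at 0.1%. SIP18 (YMR175W, chrXIII:611016-611255 on sacCer3, + strand), which encodes a hydrophilin, a small soluble protein of the desiccation response, stood at 193, 295 and 585 FPKM in middle and 1771, 3024 and 13036 in low glucose (log2 change 3.67 ± 0.80). Its increase between the last 2 concentrations was larger than that over the whole middle side. GRE1, a hydrophilin related to SIP18, ran from 35.9, 48.8 and 84.2 to 227, 338 and 1059 FPKM, and PAI3, the inhibitor of the vacuolar protease Pep4, from 300.5, 547 and 825 to 1817, 3003 and 9459 FPKM. The log2 changes of GRE1 and PAI3 were 3.01 ± 0.62 and 2.85 ± 0.68.

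Carriers and enzymes for other carbon sources made up much of the rest of the 12 largest rises. SFC1, the mitochondrial carrier that exchanges succinate for fumarate, was at 6.01, 7.63 and 10.2 FPKM in middle and 30.5, 70.9 and 214 in low glucose (log2 change 3.16 ± 0.68). JEN1, the lactate and pyruvate permease, went from 12.5, 16 and 20.7 to 62, 100.2 and 221 FPKM (2.72 ± 0.47). Both had their highest value at the lowest glucose. IDP2, the cytosolic NADP-dependent isocitrate dehydrogenase, was at 18.1, 22.8 and 27.1 and then 76, 139 and 404 FPKM (2.80 ± 0.59), and STL1, a glycerol-proton symporter, at 13.5, 17.3 and 22 and then 54.1, 95.5 and 235 FPKM (2.56 ± 0.53). COX26, a small protein of the respiratory supercomplex, read 57.6, 139.6 and 124 FPKM in middle and 296, 549.7 and 1165 in low glucose (2.51 ± 0.57), with the 0.1% library well below the other middle ones. The remaining genes of this group were the stationary-phase gene SPG4 (3.10 ± 0.62), YMR206W (2.68 ± 0.44) and YCL048W-A (2.56 ± 0.49).

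**Figure D1:**
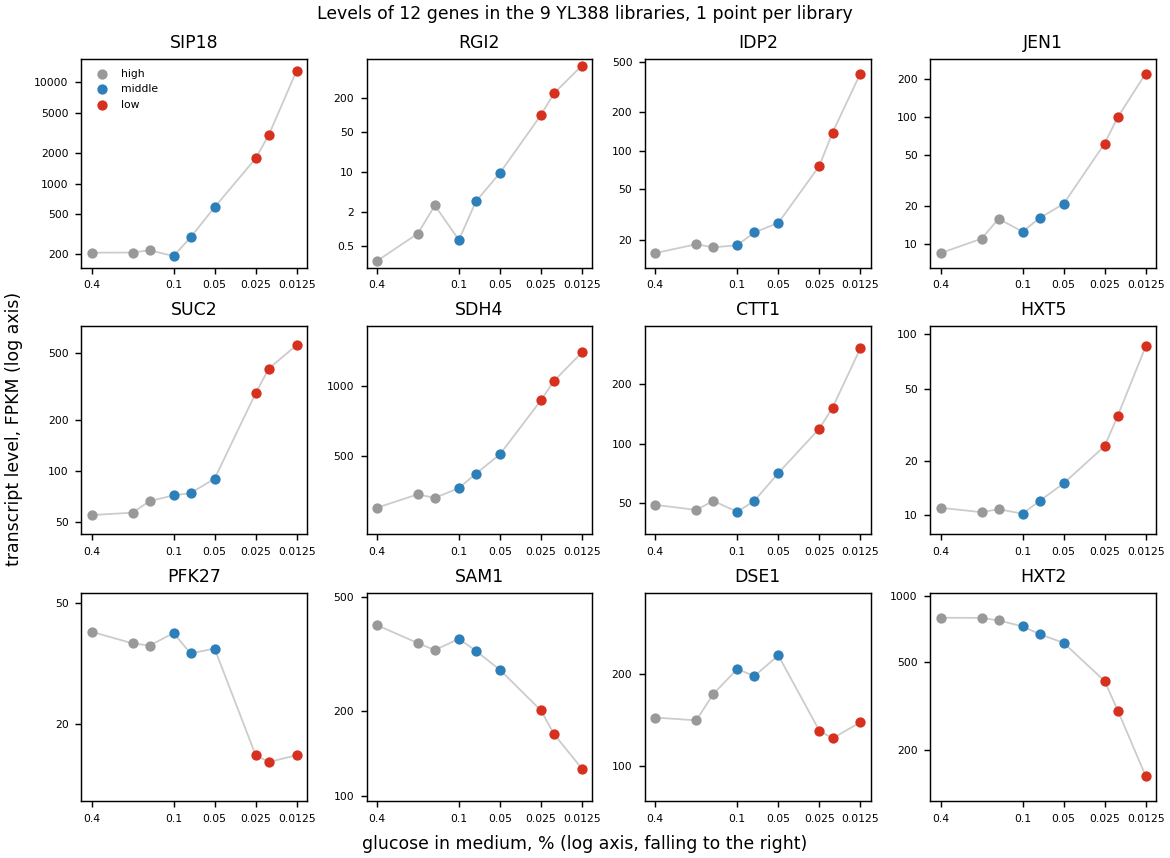
FPKM of 12 genes (log axis, in FPKM) against glucose concentration (log axis, in %) in the 9 YL388 libraries, 1 point per library, with the high, middle and low libraries marked. RGI2 and SIP18 climb through the low side to 740.1 and 13036 FPKM, whereas DSE1 lies lower in all 3 low libraries than in the 3 middle ones.

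Sugar genes under Mig1 control were among those that rose. Of 20 measured genes on this list 11 rose (55.0%) and none fell, with a median log2 change of 0.75 beside 0.03 for all genes tested. Counts on this and the later lists are read beside the 11.0% of all genes that rose and the 3.53% that fell. Counts from another fit or scaling are read beside all calls in that setting. In a fit over all 9 YL388 libraries, the 9-library fit, 1062 of 6118 genes rose and 646 fell. The calls were 551 and 453 with quantile normalization, and 677 and 321 without the 0.0125% library. Lists share members, so a gene can be counted on several and the lists are not separate groups. The Mig1 list also holds the hexose transporter HXT2, at -1.33 ± 0.35 (limma adjusted p = 0.0559). On it 1 member fell under quantile normalization, in the 9-library fit and without the 0.0125% library. SUC2 (YIL162W, chrIX:37385-38983 on sacCer3, + strand), the secreted invertase that splits sucrose, was at 71.6, 73.9 and 89.9 FPKM in the middle libraries and 288, 403 and 554 in the low ones, a log2 change of 2.34 ± 0.24. The values were nearly level across the middle side and the largest jump fell between 0.05 and 0.025%. HXK1 and GLK1, the glucose-phosphorylating enzymes of poor sugar supply, rose by 1.25 and 1.36 on the log2 scale, but both overlap another gene and their reads cannot be assigned with certainty. HXK2, the hexokinase of abundant glucose, read 385, 356 and 377 and then 451, 424 and 377 FPKM and was not called (0.16 ± 0.08, limma adjusted p = 0.191). Of 16 galactose and maltose genes 6 rose, with a median of 0.40, and each of these 6 is also among the rises counted on the Mig1 list. They included MAL33, a maltose activator (0.90 ± 0.14), and GAL3, the galactose sensor (0.90 ± 0.16), while the galactokinase GAL1 read 13.2, 15.4 and 14.4 and then 13.4, 15.3 and 13.1 FPKM (-0.04 ± 0.09, limma adjusted p = 0.786). MAL12, the maltase, rose by 1.35, though 99.5% of its bases match MAL32.

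Gluconeogenesis and the glyoxylate cycle let cells build sugars from compounds with few carbons. Of 28 measured genes on this list 14 rose and 1 fell, with a median log2 change of 1.00. ADH2, the glucose-repressed enzyme that oxidizes ethanol, stayed at 33.7, 35.6 and 36.4 FPKM in middle glucose and reached 91.6, 133 and 301 in low glucose (2.10 ± 0.42). The acetate transporter ADY2 went from 11.7, 11.6 and 15.4 to 29.2, 42.3 and 95 FPKM (1.86 ± 0.42), and AGX1, which makes glycine from glyoxylate, from 52, 54.4 and 71.5 to 159, 217 and 411 FPKM (2.03 ± 0.35). The key enzymes of the pathway moved mostly between the low libraries and were not called. FBP1, fructose-bisphosphatase, was at 12.4, 13.7 and 14.5 and then 25.8, 35 and 95.7 FPKM (1.65 ± 0.46, limma adjusted p = 0.0622). PCK1, phosphoenolpyruvate carboxykinase, was at 7.25, 7.93 and 9.80 and then 14.1, 21.4 and 48.8 FPKM (1.47 ± 0.43, limma adjusted p = 0.0661). The glyoxylate enzymes ICL1 and MLS1 had log2 changes of 0.69 ± 0.26 and 1.10 ± 0.43 (limma adjusted p = 0.105 and 0.114). For each of these 4 genes every low library was above every middle one, as for 27.9% of all genes tested. The 0.0125% library was well above the other low ones.

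Genes of respiration rose as near-complete groups. In the tricarboxylic acid cycle 16 of 18 measured genes rose (median 0.89), in the respiratory chain 27 of 29 (median 0.76), and among nuclear genes of the ATP synthase 16 of 17 (median 0.64), and none fell. SDH4, a membrane anchor of succinate dehydrogenase, was at 365, 420.3 and 509 FPKM in the middle libraries and 867, 1052 and 1391 in the low ones (1.34 ± 0.20). SDH2, the iron-sulphur subunit of the same complex, went from 339.7, 370 and 456 to 678, 853 and 1119 FPKM (1.16 ± 0.20), and SDH1 and SDH3 rose by 1.16 and 0.97, so that the changes of the 4 subunits lay between 0.97 and 1.34. The external NADH dehydrogenase NDE2 rose from 7.09, 7.91 and 10.5 to 17.9, 24.4 and 45.3 FPKM (1.58 ± 0.34). STF1, which stabilizes the inhibitor of the ATP synthase, went from 750.4, 902 and 1143 to 1933, 2692 and 4331 FPKM (1.62 ± 0.32).

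Isoforms of a cytochrome oxidase subunit did not share a call. COX5A, the cytochrome oxidase subunit of aerobic growth, rose from 979, 1006 and 1198 to 1421, 1581 and 1869.7 FPKM (0.61 ± 0.13), while COX5B, its counterpart of low oxygen, was at 228, 238 and 258 and then 202, 208 and 172 FPKM (-0.32 ± 0.09, limma adjusted p = 0.0659). With quantile normalization COX5B was called as a fall (-0.40, limma adjusted p = 0.0428). The difference between COX5A and COX5B was not itself tested.

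Mitochondrial ribosomal proteins, which make the subunits encoded by the mitochondrial genome, moved in the same direction with smaller changes. Of 75 measured genes 50 rose and none fell (median 0.30), all 75 changes were positive, and with quantile normalization 35 rose. MRPL39 went from 1643, 1858 and 2039 to 2729.9, 2959 and 3429.9 FPKM (0.72 ± 0.12). The list also holds KGD4 (0.88 ± 0.13) under an older name, although its product belongs to the ketoglutarate dehydrogenase complex. Of 18 genes of peroxisomal fatty acid oxidation 8 rose and 1 fell (median 0.65), among them CAT2, the carnitine acetyltransferase, at 8.34, 8.69 and 8.55 and then 14.2, 15.6 and 27.2 FPKM (1.01 ± 0.24).

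**Figure D2:**
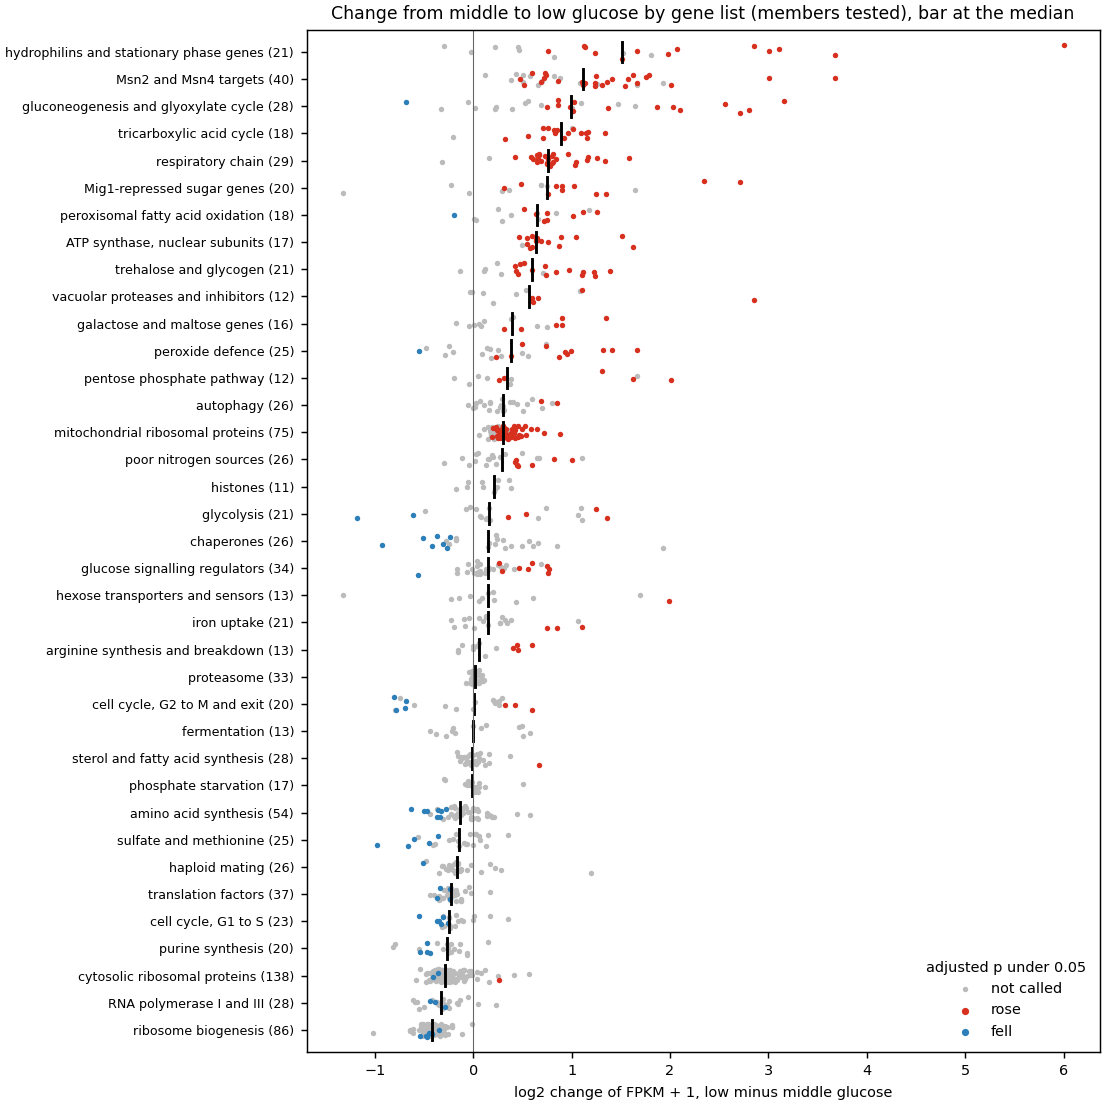
Log2 change, low minus middle glucose, of each tested member of the gene lists, coloured by call. A bar marks the median of each list and a line marks 0. Medians of the respiratory, storage and stress lists lie to the right of 0 and that of ribosome biogenesis lies to the left (-0.42). The median of all genes tested (0.03) is not drawn.

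Stress genes rose widely. Of 40 targets of Msn2 and Msn4, 26 rose (65.0%), none fell and the median log2 change was 1.11. In 38 of the 40 every low library was above every middle one, as for 27.9% of all genes tested. Besides SIP18 and GRE1, these include HSP12, a membrane-stabilizing protein, at 13703, 15252 and 20505 FPKM in middle and 26818, 33835 and 50472 in low glucose (1.14 ± 0.27), and DDR2, a stress gene of unknown role, at 5691, 8095 and 10189 and then 17601, 25012 and 40862 FPKM (1.75 ± 0.36). Of 21 hydrophilin and stationary-phase genes 13 rose (median 1.51). The increases were steepest at the lowest glucose. CTT1, the cytosolic catalase, went from 45.2, 51.3 and 71 to 119, 152 and 303 FPKM (1.67 ± 0.37), and GPX1, a glutathione peroxidase, from 28.8, 29.4 and 32 to 59.8, 73.6 and 123 FPKM (1.41 ± 0.26). Of 25 peroxide defence genes 11 rose and 1 fell (median 0.39; 8 rose with quantile normalization).

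Of 26 measured chaperone genes none rose and 7 fell, while the median change was 0.16. In the 9-library fit 3 rose and 7 fell, and without the 0.0125% library 3 rose and 10 fell. SSA2, a constitutive cytosolic Hsp70, went from 427, 408 and 362 to 247, 195 and 188 FPKM (-0.93 ± 0.12), and its copy SSA1, 96.4% identical in bases, was at 254, 280 and 292 and then 301, 315 and 429 FPKM (0.32 ± 0.15, limma adjusted p = 0.155), so reads may be shared between them. YDJ1, the Hsp40 partner of Hsp70, fell from 679, 642 and 623 to 491, 463 and 415 FPKM (-0.51 ± 0.08). HSP26, a small heat-shock protein, was at 28.7, 36.4 and 41 and then 67.9, 110.4 and 332 FPKM and was not called (1.92 ± 0.57, limma adjusted p = 0.0669). The disaggregase HSP104 read 103, 104 and 114 and then 113, 126 and 192 FPKM (0.39 ± 0.20, limma adjusted p = 0.19).

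Storage carbohydrate genes rose in 15 of 21 cases and none fell (median 0.60). Several of these rises, such as those of TPS1 and GSY1, are also counted among the Msn2 and Msn4 targets. GSY1, a glycogen synthase, went from 32.9, 35.5 and 46 to 86.4, 96.4 and 88.9 FPKM (1.24 ± 0.13), GLC3, the branching enzyme, from 30.5, 34.5 and 43.4 to 75.9, 81.3 and 99.5 FPKM (1.23 ± 0.16), and IGD1, an inhibitor of glycogen debranching, from 42.8, 57.2 and 69.5 to 115, 154 and 179 FPKM (1.39 ± 0.23). TPS1, the trehalose phosphate synthase, changed less (0.60 ± 0.13). GSY1 and GLC3 made their largest step between 0.05 and 0.025% glucose.

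Glycolytic genes were called in both directions. Among 21 of them 4 rose (19.0%, beside 11.0% of all genes) and 2 fell (9.52%, beside 3.53%). The median was 0.16, and 8 rose in the 9-library fit. Among 13 fermentation genes no call was made. With either other scaling 1 fermentation gene fell, and the median of 0.001 turned negative, at -0.035 or -0.064. PFK27 (YOL136C, chrXV:67561-68754 on sacCer3, - strand), the kinase that makes the allosteric activator of phosphofructokinase, showed the largest called fall outside overlapping genes. It was at 39.8, 34.1 and 35.4 FPKM in the middle libraries and 15.8, 15 and 15.8 in the low ones (-1.18 ± 0.07, limma adjusted p = 0.0115), a single drop between 0.05 and 0.025% with level values on either side. ENO2, the main glycolytic enolase, fell from 1818, 1685 and 1488 to 1059.8, 1008 and 1207 FPKM (-0.61 ± 0.11), and ENO1, 94.9% identical to it, was at 95.8, 97.9 and 107 and then 137, 194 and 376 FPKM (1.10 ± 0.35, limma adjusted p = 0.0791). The glyceraldehyde phosphate dehydrogenase TDH1 resembled ENO1 at 18.5, 18.9 and 19.8 and then 28.8, 36.9 and 65 FPKM (1.07 ± 0.28, limma adjusted p = 0.0546). PYK2, the pyruvate kinase of low glycolytic flux, rose (0.53 ± 0.07), and the main enzyme CDC19, which overlaps another gene, was not called (-0.48 ± 0.15, limma adjusted p = 0.0733). No difference between isoforms was tested. In the pentose phosphate pathway 5 of 12 genes rose (median 0.35), led by the transaldolase paralogue NQM1 (2.01 ± 0.46) and the minor 6-phosphogluconate dehydrogenase GND2 (1.62 ± 0.38).

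Genes for making ribosomes lay lower in low glucose, but few passed the test. Of 86 ribosome biogenesis genes 7 fell (8.14%, beside 3.53% of all genes) and none rose, and the median was -0.42. All 86 changes were negative. In 83 of the genes every low library was below every middle one, as for 22.4% of all genes tested. In the 9-library fit, which estimates the spread from more samples, 57 of these genes fell, beside 646 of all 6118 genes tested. Without the 0.0125% library 19 did, beside 321 of all 6107. NAN1, a part of the small-subunit processome, went from 63.4, 65 and 59 to 48.8, 45.6 and 34.9 FPKM (-0.54 ± 0.13), and ROK1, an RNA helicase of the small subunit, from 66.3, 59.1 and 59.8 to 49.8, 43.5 and 39.2 FPKM (-0.48 ± 0.10). DBP2, an RNA helicase chosen after its values were seen, was at 203, 188 and 169 and then 133, 93.4 and 61.7 FPKM (-1.02 ± 0.27, limma adjusted p = 0.0552). Most of this decline lay between the low libraries.

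Of 138 cytosolic ribosomal protein genes 2 fell and 1 rose, a share no larger than among all genes (3.53% and 11.0%), although 129 changes were negative and the median was -0.28. The count of falls was 15 with quantile normalization and 45 in the 9-library fit, beside 453 and 646 over all 6118 genes tested. RPL18B fell from 807, 757 and 747 to 633, 591 and 522 FPKM (-0.41 ± 0.09), and RPS9A, 92.1% identical to RPS9B, rose from 823, 839 and 823 to 989, 1055 and 948 FPKM (0.27 ± 0.06; with median-of-ratios or quantile scaling no member rose). Of 28 RNA polymerase I and III genes 3 fell (14 in the 9-library fit; median -0.32), among them RPC11 (-0.44 ± 0.09) and RPC40 (-0.39 ± 0.10). Of 37 translation factor genes 4 fell (10 with quantile normalization and 16 in the 9-library fit; median -0.23), among them PRT1, a subunit of initiation factor eIF3 (-0.34 ± 0.08), and GCN3, a subunit of eIF2B (-0.24 ± 0.05).

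Biosynthetic genes also contributed to the falls. Of 54 amino acid synthesis genes 8 fell and none rose (median -0.13; 15 fell with quantile normalization), including HIS1, the first enzyme of histidine synthesis, at 360.1, 358 and 344 and then 259.6, 238 and 194 FPKM (-0.63 ± 0.11). In sulphate and methionine metabolism 5 of 25 fell (median -0.14). SAM1, an S-adenosylmethionine synthetase, went from 357, 324 and 278 to 200.2, 165 and 125 FPKM (-0.98 ± 0.19), SAM3, the S-adenosylmethionine permease, from 125, 128 and 117 to 85.9, 83.5 and 64.5 FPKM (-0.66 ± 0.12), and the methionine synthase MET6 from 233, 208 and 202 to 151, 134 and 138 FPKM (-0.60 ± 0.08). The steady decline of SAM1 across all 6 libraries differs in shape from the level low values of CHA1, the serine and threonine deaminase, at 30.5, 30.2 and 26 and then 17.7, 17.5 and 17.4 FPKM (-0.69 ± 0.07). Of 20 purine synthesis genes 4 fell (median -0.26; 7 with median-of-ratios scaling and 9 with quantile normalization). Among them ADE17 (-0.54 ± 0.12) and SHM2, the cytosolic serine hydroxymethyltransferase (-0.47 ± 0.10), had their lowest values at 0.025 or 0.02% and were higher again at 0.0125%. HPT1, the purine salvage enzyme, fell from 374, 368 and 351 to 256, 213 and 187 FPKM (-0.74 ± 0.12). The other genes among the 12 largest falls were the peptide transporter OPT1 (-0.72 ± 0.11), the drug and amino acid exporter AQR1 (-0.70 ± 0.12) and the mitochondrial carrier YMC2 (-0.76 ± 0.09).

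Some genes of daughter cell separation were among the largest falls; they are on no list of their own and were put together after their values were seen. SCW11, DSE1 and DSE2, products that act on the wall between mother and daughter, and SUN4, a related septation protein, all fell. DSE1 (YER124C, chrV:407342-409063 on sacCer3, - strand) was at 208, 197 and 230.5 FPKM in the middle libraries and 130.4, 123 and 139 in the low ones (-0.69 ± 0.08), and DSE2 at 549, 557 and 582 and then 387, 325 and 339 FPKM (-0.69 ± 0.08). Both dropped between 0.05 and 0.025% and stayed near their new level. SCW11 went from 166, 153 and 167 to 115, 90.1 and 74.4 FPKM (-0.81 ± 0.16) and SUN4 from 273, 293 and 283 to 188, 151 and 128 FPKM (-0.87 ± 0.14), declining further within the low side. The 3 libraries at high glucose read 144, 141 and 172 FPKM for DSE1 and 366, 419.7 and 460.2 FPKM for DSE2, so both genes were highest at middle glucose. The chitinase CTS1 had the same pattern (-0.78 ± 0.08) but overlaps another gene, and EGT2, DSE4 and the cyclin gene PCL9 were not called (-0.80 ± 0.33, -0.75 ± 0.32 and -0.60 ± 0.45, limma adjusted p = 0.127, 0.141 and 0.358). In bulk cultures, fewer cells at a stage of the cycle and less RNA per cell cannot be told apart.

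Other cell cycle genes moved in both directions. On the list of G2 to M and mitotic exit genes 3 of 20 rose and 4 fell, with a median of 0.01 that was negative under both other scalings. The mitotic cyclin CLB1 rose from 57.1, 52.9 and 51.3 to 77, 83.8 and 84.2 FPKM (0.59 ± 0.06), and SWI5, an activator of late mitotic genes, rose by 0.43 ± 0.09. Of 23 genes of the G1 to S transition 6 fell (26.1%) and none rose (median -0.24). CLB6, an S-phase cyclin, stood at 17.5, 17.4 and 17.4 FPKM in middle and 12.2, 11.2 and 11.5 in low glucose (-0.55 ± 0.06), and RAD27, the flap endonuclease, fell by a log2 change of -0.36 ± 0.06. No histone gene was called among 11, with 0 calls under either other scaling.

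The lists for nutrients other than carbon and for degradation are read against the 11.0% of all genes that rose. Of 26 genes for poor nitrogen sources 8 rose (30.8%, median 0.30), including PUT4, the proline permease, at 111, 131 and 144 and then 205, 249 and 330.3 FPKM (1.00 ± 0.19), and UGA2 of the GABA pathway (0.82 ± 0.12). Arginine genes rose in 4 of 13 cases (30.8%, median 0.06), among them CAR1, arginase (0.45 ± 0.07), and PUT2 of proline breakdown (0.45 ± 0.06). For iron uptake 3 of 21 rose (14.3%, near the share of all genes; median 0.15), among them the cell-wall siderophore protein FIT3 (1.10 ± 0.19) and the siderophore transporter SIT1 (0.75 ± 0.06). Of 12 vacuolar proteases and inhibitors 5 rose (41.7%, median 0.57), with PBI2, the inhibitor of protease B, at 2872, 3430.4 and 3911 and then 5794, 6828 and 9686 FPKM (1.10 ± 0.22), PRB1 itself at 0.66 ± 0.14 and PEP4 at 0.60 ± 0.12. Of 26 autophagy genes 2 rose (7.69%, below the share of all genes; 10 in the 9-library fit; median 0.30), one being the mitophagy gene ATG33 (0.69 ± 0.15). No call was made among 33 proteasome genes (range -0.07 to 0.11; the median of 0.02 turned negative under both other scalings) or among 17 phosphate genes. Sterol and fatty acid synthesis had 1 rise in 28 (3.57%, below the share of all genes), that of ERG28 (0.67 ± 0.13). Haploid mating genes had 1 fall in 26 (3.85%, near the 3.53% of all genes that fell), that of SST2 (-0.51 ± 0.12).

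Regulators of the glucose response rose more often than all genes tested and by small amounts. Of 34 measured regulators 8 rose (23.5%, beside 11.0% of all genes) and 1 fell (median 0.15). With quantile normalization 5 rose, and USV1, GIS1 and RAS2 were no longer called. Among transcription activators, CAT8, which acts on gluconeogenic genes, rose from 6.83, 7.81 and 8.73 to 12.7, 13.9 and 15 FPKM (0.76 ± 0.11), HAP4, the limiting subunit of the Hap complex, from 109, 110 and 129 to 167, 189.7 and 236 FPKM (0.75 ± 0.14), and ADR1 from 22.3, 20.2 and 26.7 to 32.1, 33.1 and 38 FPKM (0.56 ± 0.12). USV1 and GIS1 rose by 0.60 ± 0.15 and 0.26 ± 0.06. Levels of the stress activators and of the main repressor showed no call. MSN2 was at 43.2, 43.1 and 43.7 and then 43.4, 43.5 and 46.6 FPKM (0.04 ± 0.05, limma adjusted p = 0.6), and MIG1 at 103, 96.3 and 103 and then 103, 92.2 and 75.9 FPKM (-0.16 ± 0.11, limma adjusted p = 0.315). MSN4 was under 2 FPKM throughout, and the 6 libraries list the repressor genes NRG1, NRG2 and MIG2 at 0. The other regulators had log2 changes from -0.06 to 0.69 and were not called (SIP4, GPA2, SIP2, PIP2, RDS2, REG1, GLC7, GPR1, OAF1, RIM15, RGT1, CRZ1, GAL83, SIP1, MIG3 and SFP1).

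Within the kinase pathways, the protein kinase A catalytic gene TPK2 rose from 41.5, 41.2 and 45.7 to 51.5, 61 and 67.2 FPKM (0.47 ± 0.11) and TPK3 was not called (-0.16 ± 0.10, limma adjusted p = 0.269). RAS2, an activator of adenylate cyclase, rose from 299.7, 309 and 324 to 368, 380 and 397 FPKM (0.29 ± 0.06), and BCY1, the inhibitory subunit, was not called (0.31 ± 0.09, limma adjusted p = 0.0615). SNF1 was at 51.1, 50.5 and 54.5 and then 57.3, 57.2 and 58.8 FPKM (0.15 ± 0.05, limma adjusted p = 0.0839), and its partner SNF4 changed by -0.01 ± 0.05 (limma adjusted p = 0.905). STD1, a corepressor of hexose transporter genes, was the regulator that fell, from 22.6, 22.3 and 18.8 to 13.2, 13.7 and 15 FPKM (-0.57 ± 0.09), and its paralogue MTH1 was at 91.5, 88.2 and 99.6 and then 123, 119 and 102 FPKM (0.30 ± 0.09, limma adjusted p = 0.0703).

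Hexose transporters carry glucose into the cell, and 1 of 13 measured members of the list was called (7.69%; 4 rose and 1 fell in the 9-library fit). HXT6 rose from 1.42, 2.83 and 2.86 to 9.81, 13.7 and 13.2 FPKM (1.99 ± 0.24), but 99.8% of its bases match HXT7, which was at 113, 156 and 157 and then 235, 229.8 and 182 FPKM (0.61 ± 0.16, limma adjusted p = 0.0578), so the split between them is uncertain. HXT2, a high-affinity transporter, was at 726, 669 and 611 FPKM in middle and 409.9, 301 and 152 in low glucose (-1.33 ± 0.35, limma adjusted p = 0.0559). HXT5, the transporter of slow growth, was at 10.2, 12 and 15 and then 24.1, 35.5 and 85.6 FPKM (1.70 ± 0.45, limma adjusted p = 0.0562). HXT2 read lower and HXT5 higher in every low library than in any middle one, with a steep run inside the low side. The low-affinity transporters HXT1 and HXT3 stayed between 10.3 and 23.9 FPKM, with log2 changes of 0.20 ± 0.21 and 0.15 ± 0.19 (limma adjusted p = 0.501 and 0.565). The sensors SNF3 and RGT2 were not called (0.43 ± 0.12 and -0.14 ± 0.12, limma adjusted p = 0.0658 and 0.412). The other tested members, HXT4, HXT8, HXT11, HXT17 and GAL2, had log2 changes from -0.23 to 0.21 without a call, HXT9, HXT10, HXT13, HXT14 and HXT15 averaged under 1 FPKM and HXT16 was listed at 0.

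**Figure D3:**
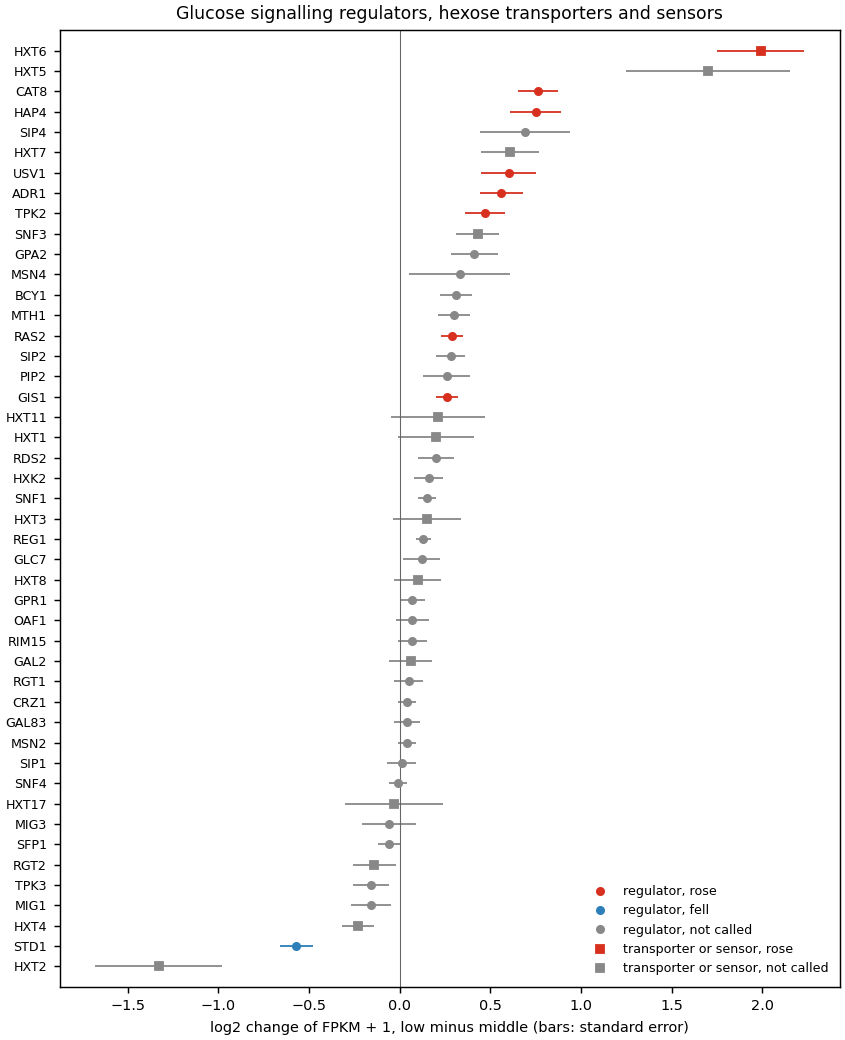
Log2 change from middle to low glucose, low minus middle, of measured glucose signalling regulators and hexose transporters, with the standard error as bars and called genes marked. The called regulators plotted lie between -0.57 (STD1) and 0.76 (CAT8), while the hexose transporters span -1.33 (HXT2) to 1.99 (HXT6).

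The 6 concentrations hold 3 equal halvings of glucose, from 0.1 to 0.05%, 0.05 to 0.025% and 0.025 to 0.0125%, each with 1 library at either end and hence no test. The called genes were chosen by the difference across the middle of this range, so these shares describe them and show no more. Over 671 called rises above 0 in all 6 libraries, the median log2 changes at the 3 halvings were 0.16, 0.32 and 0.25, and the largest of the 3 lay at the second for 50.8% of the genes and at the third for 42.3%. The 106 genes that rose at least 2-fold shifted towards the end, with medians of 0.48, 0.72 and 0.89 and the third halving the largest for 67.9%. Falls were placed differently: of 216 fallen genes 70.4% had their largest change from 0.05 to 0.025%, with medians of -0.07, -0.26 and -0.14. Before the step, the halvings from 0.4 to 0.2% and from 0.2 to 0.1% gave medians of 0.05 and 0.07 for the rises and of -0.05 and 0.07 for the falls.

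The lists did not share one placement. Ribosome biogenesis had median changes of -0.17, -0.11 and -0.50 at the 3 halvings, and cytosolic ribosomal proteins -0.04, -0.08 and -0.40, so the last halving held most of both declines. Mitochondrial ribosomal proteins had 0.10, 0.21 and 0.08, with the largest at the second. The Msn2 and Msn4 targets had 0.44, 0.42 and 0.83, and the respiratory chain 0.24, 0.41 and 0.46. The G1 to S genes stood at 0.03, -0.19 and 0.00 after a median of 0.25 from 0.2 to 0.1%, so their decline at the second halving followed an increase at higher glucose.

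**Figure D4:**
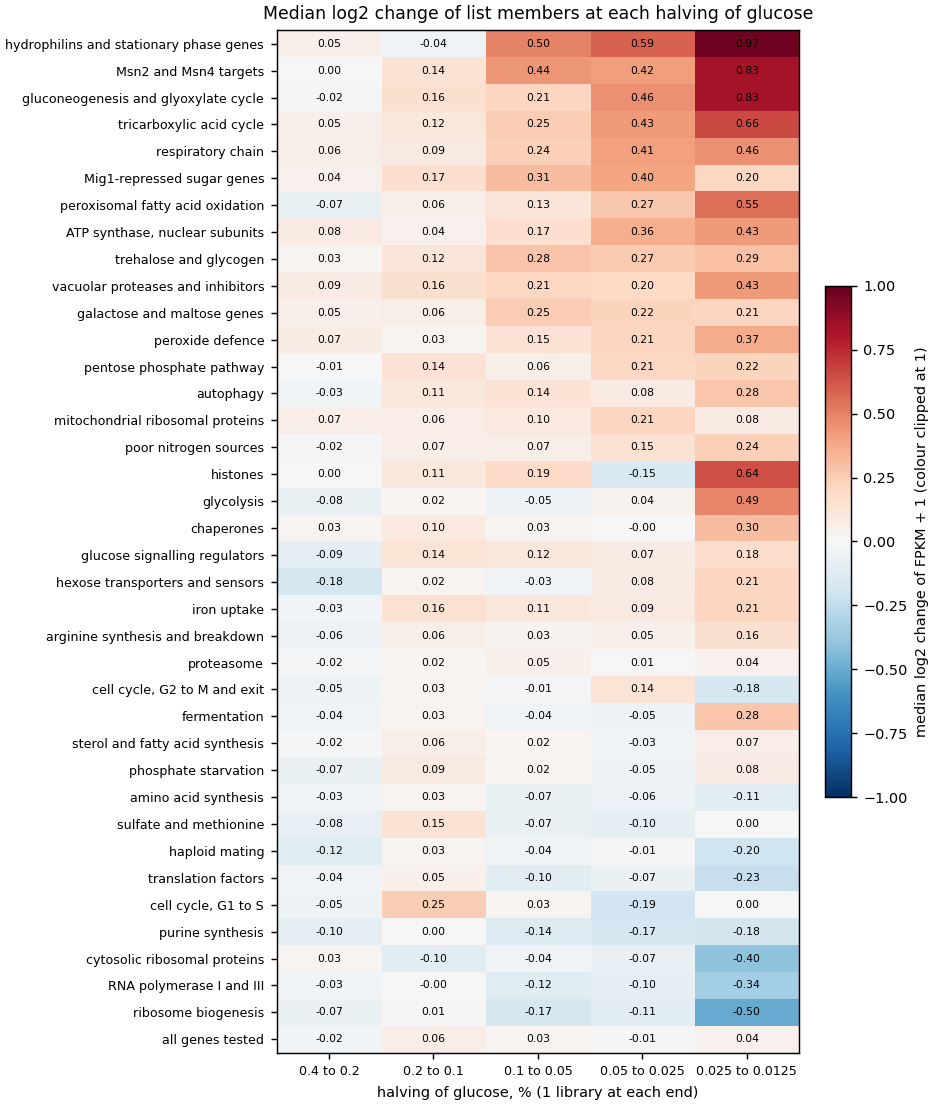
Median log2 change at 5 successive halvings of glucose, 1 library at each end, for the gene lists and for all genes tested. At the last halving the Msn2 and Msn4 targets reach 0.83 and ribosome biogenesis -0.50, beside 0.04 for all genes tested.

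The step was also set against the one before it, from high to middle glucose, which shares the middle libraries. The test was the difference itself, the change from middle to low minus that from high to middle, over 9 libraries. Of 6121 genes none passed at an adjusted p under 0.05 with limma, 831 had an unadjusted p under 0.05, and the steps were 1.97 and 1.67 wide on the log2 glucose scale. SUC2 changed by 0.40 ± 0.22 from high to middle and by 2.34 ± 0.24 from middle to low glucose, a difference of 1.95 ± 0.38 (limma adjusted p = 0.185). For SIP18 these values were 0.60 ± 0.69 and 3.67 ± 0.80, with a difference of 3.08 ± 1.20 (limma adjusted p = 0.351). PFK27 showed -0.05 ± 0.07 and -1.18 ± 0.07, a difference of -1.13 ± 0.12 (limma adjusted p = 0.0811), and DSE1 0.48 ± 0.09 and -0.69 ± 0.08, a difference of -1.17 ± 0.16 (limma adjusted p = 0.109). Large point differences were thus not called at this number of libraries, and the missing calls do not show that the steps were alike.

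Motif matches were counted over the groups of called genes. The stress element was present in 75.0% of 104 promoters of genes that rose at least 2-fold, in 52.5% of 552 promoters of smaller rises and in 25.2% of 210 promoters of fallen genes, against 34.1% of 5984 promoters in all. These shares were not graded throughout: the stress element was in 59.1% of 22 promoters of genes that rose at least 4-fold and in 34.5% of 29 promoters of genes that fell at least 1.5-fold. The Mig1 core, which shares GGGG with the stress element so that matches can overlap, was in 56.7% of the larger and 29.7% of the smaller rises and in 19.5% of the falls, against 22.7% in all. The stretches shown above hold 2 stress elements for SIP18 and 3 Mig1 cores for SUC2. The Cat8 element, found in IDP2, was in 18.3% of the larger rises, 9.42% of the smaller ones and 2.86% of the falls, against 7.24% in all. The CCAAT core occurs in most promoters, at 71.2% of the larger rises and 62.5% of all, and in 86.2% on the respiratory chain list. The PAC core was in 38.1% of the falls (34.5% of those of at least 1.5-fold), 17.3% of the larger rises and 28.3% of all promoters, and 94.2% on the ribosome biogenesis list. A match is a run of letters and not a measured binding site, and no binding was measured.

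**Figure D5:**
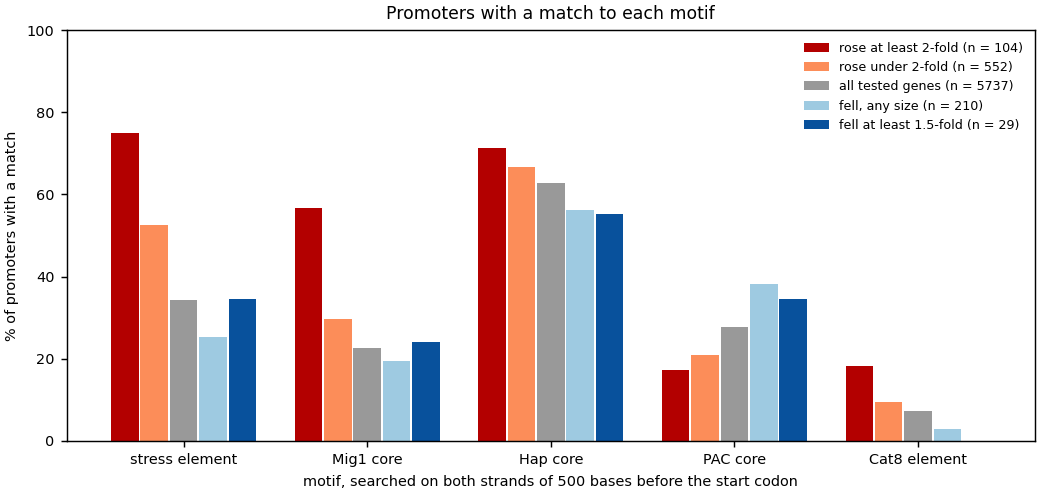
Share of promoters (%) with at least 1 match to each of 5 motifs in the 500 bases before the start codon, for genes grouped by their change from middle to low glucose. Stress element matches fall from 75.0% among rises of at least 2-fold to 25.2% among falls, and PAC core matches run the other way from 17.3 to 38.1%. Among falls of at least 1.5-fold both motifs stand at 34.5%.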

How the data were processed

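Samples were grouped by the strain and glucose concentration in their labels. The authors deposited FPKM per gene with lower and upper confidence bounds, also in FPKM, as estimated by Cufflinks, per the file headers. The authors name sacCer3, TopHat, Cufflinks and DESeq2, per the submitters' processing notes; their versions and roles, the annotation and the handling of strand were not given in the sources used here. A file held 6692 genes, of which 6008 matched the RefSeq annotation of R64 by systematic name and 6000 had identical coordinates; 1321 overlap another gene and are called uncertain. An exact 0 can be a failed estimate (131 genes at 0 in at least 1 of the 6 libraries had 10 FPKM or more in another), so it is written as listed at 0. The 18 transient stress samples and the YL390 library were not analysed here.

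From these values, log2(FPKM + 1) was fitted in R 4.3.3 by limma 3.58.1 (contrast low minus middle, moderated with an intensity trend, 4 residual degrees of freedom) for genes whose 6 libraries averaged 1 FPKM or more, adjusted after Benjamini-Hochberg with a threshold of 0.05, and the script was tested on simulated data. A second fit over 9 libraries tested the difference between the steps. With 1 culture per concentration and nothing stating that cultures were separate biological samples, p-values measure only the spread between these libraries. The labels give no batch.

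The members and the 37 gene lists were chosen with earlier results of these data known. Named genes were called, above 0 in the 6 libraries, not overlapping, separate between the sides and at 10 FPKM or more in the mean: the 12 largest changes each way, and the 2 largest in each list. Glucose regulators and hexose transporters were named whatever their values, except an item that is not reported here. The genes HSP26, HSP12, HSP104, DBP2, CTS1, EGT2, DSE4, PCL9, COX5A, COX5B, TDH1, ENO1, HXK1, GLK1, ADH2, SSA1, FBP1, PCK1, MAL12, SDH1, SDH3, CLB1, SWI5, DDR2, MET6, YJR146W, YCR087C-A, ICL1, MLS1, GAL1, ADY2, AGX1, PYK2, CDC19, GLC3, TPS1, PRB1, PEP4 and those in the closing section were chosen after their values were seen. Copies were found with blastn 2.17.0 over at least 50% of a gene's length. Alternatives were other pseudocounts, filters and scalings, the centre of the confidence bounds, other fits and leaving out each library.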

Additional observations from a re-analysis of the deposited data

How the results depend on the processing

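Other pseudocounts and filters, or leaving out a library, could not reverse the direction of a called gene, because its sides did not overlap. Of the 672 rises and 216 falls, each kept its direction under every alternative in which it was tested, except with log2 glucose as a covariate. That covariate leaves a jump beyond a line shared by the sides, and 494 rises and 183 falls kept their direction, 1 gene rising and 0 falling at an adjusted p under 0.05 (369 at an unadjusted p under 0.05). Of 118 named called genes 43 had a jump of the opposite sign. Most of the 12 largest rises were among these 43, such as SIP18 (-0.79) and PAI3 (-0.92), but not RGI2 (0.61), JEN1 (0.26) or YMR206W (0.2). Of the 12 largest falls only SAM1 (0.03) was. Quantile normalization raised the falls to 453, and a fit over all 9 libraries gave 1062 rises and 646 falls. Leaving out each library in turn gave 1 to 1020 rises and 1 to 539 falls. Each of these fits had 5 libraries and fewer residual degrees of freedom than the main fit, and why their counts differed was not tested. The other alternatives stayed within 1.5 times, from 506 rises and 152 falls without an intensity trend to 855 and 315 without genes listed at 0. For the difference between the steps, 1 gene was more negative once overlapping genes were left out, leaving out each library gave 0 to 2 more positive and 0 to 3 more negative genes, and the rest gave 0. The 9-library fit also gave over 1.5 times as many called members on the lists of fatty acid oxidation (14 rises), pentose phosphate pathway (8), vacuolar proteases (8), iron uptake (7), amino acid synthesis (16 falls), sulphate and methionine (9) and purine synthesis (12). Over all genes tested, rises went from 672 to 1062 and falls from 216 to 646 in that fit. The list counts are read beside these. The lists in the 9-library fit and without the 0.0125% library were chosen after seeing the data. No paired analysis was possible because each concentration has a single library and the labels give these samples no replicate numbers. Depth is known only through the confidence bounds, and changes of genes near 1 FPKM cannot be resolved.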

Other observations

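Further genes with large called rises, chosen after their values were seen, fell outside the lists or the rule. TMA10, a ribosome-associated protein of unknown role, was at 1488, 2007 and 2685 FPKM in the middle libraries and 5726, 7905 and 14776 in the low ones (log2 change 2.13 ± 0.39), and MPC3, the mitochondrial pyruvate carrier subunit of respiratory growth, at 119.8, 168 and 219 and then 491, 634 and 879 FPKM (1.98 ± 0.29). OM45, a mitochondrial outer membrane protein, went from 118, 139 and 193 to 319, 450 and 923 FPKM (1.79 ± 0.41), and RTN2, a reticulon, from 52.8, 59.3 and 71.9 to 119.9, 163 and 350.5 FPKM (1.63 ± 0.39). Each of these genes climbed from library to library. INO1, the enzyme that starts inositol synthesis, differed in shape, at 44.4, 55 and 88.7 and then 164, 171 and 160.4 FPKM (1.44 ± 0.24), with a plateau across the low side.

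PAI3 and SIP18 lie head to head on chromosome XIII, PAI3 at 610159 to 610365 on the - strand and SIP18 at 611016 to 611255 on the + strand of sacCer3. The 650 bases between them hold 3 matches to the stress element, and their log2 changes were 2.85 ± 0.68 and 3.67 ± 0.80.

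YJR146W had the lowest limma adjusted p of the step, 1.39e-05, with 45, 43.8 and 42.1 FPKM in the low libraries and a listing at 0 in the 3 middle ones. At high glucose it was listed at 43.9 FPKM at 0.4%, at 0 at 0.2% and at 40.3 FPKM at 0.15%, and it overlaps another gene.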
